A study of Sus scrofa with 220 samples.

Results

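The inner cell mass (ICM) of early blastocysts (EB) was compared with the epiblast (EPI) of late blastocysts (LB) in pig embryos, using all cells that carry these labels. The members are 49 of the 220 single cells of the series, 24 labelled EB ICM and 25 labelled LB EPI, chosen by label. The labels themselves may rest on expression. In the paper, clustering of these transcriptomes grouped the cells by stage and by lineage, with lineages read from known markers. Cells were collected by hand, and libraries of their polyadenylated RNA were made with Smart-seq2, a method that covers transcripts over their full length. The raw counts of the cells of each embryo were summed, which gave 7 ICM sums and 4 EPI sums, and the sums are the replicates of every test below. The ICM sums hold 7 cells of embryo AA, 6 of AC, 4 of AF, 3 of AG, 2 of AE and 1 each of AD and AI. The EPI sums hold 10 cells of embryo AQ, 8 of AP, 5 of AO and 2 of AN.

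All embryos were conceived in vivo, after artificial insemination of crossbred Large White and Landrace sows, and were flushed from the uterine horns without any culture treatment or genetic change. The 2 stages were handled differently: early blastocysts lost the zona in acidic Tyrode's solution and were dissociated whole, whereas late blastocysts went through immunosurgery, in which antiserum and complement lyse the trophectoderm before the disc is picked out. Stage and handling therefore cannot be told apart in this comparison, nor can stage and sow, since the sow of each embryo was not given. The authors inferred sex from Y chromosome genes and counted a larger share of female cells in LB EPI than in EB ICM. Sex was not part of the tests here. The labels name no embryo in a field of its own, and the embryo was read from the letters of the cell identifier.

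The inner cell mass is the group of cells inside the early blastocyst that gives rise to both the epiblast and the hypoblast. The epiblast is the pluripotent tissue from which the body of the embryo forms, and the hypoblast is the extraembryonic layer that lines it. In rodents and primates the step from inner cell mass to later epiblast is known for the loss of factors of naive pluripotency, such as the KLF family, and for the gain of NODAL signalling and of the enzymes that methylate DNA de novo.

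Counts on genes per cell ranged from 1056123 to 5041162 in ICM (median 1994384.5) and from 1039303 to 5696373 in EPI (median 1870478), and a median of 5844.5 genes had a count per ICM cell against 5457 per EPI cell. The medians of depth were close, but the sums of embryos AD (3083103 counts), AI (1837131) and AN (3694298) were the shallowest. Levels are given as CPM, counts scaled to a common library size with TMM factors. For ICM they are the lowest, median and highest of the 7 sums, and for EPI the sums of AN, AO, AP and AQ in that order. The core factors POU5F1, SOX2 and NANOG were not matched to an entry and are not analysed here.

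The markers of the other blastocyst lineages were summed. Since the paper read lineages from such markers in these same data, low levels here may follow from the labelling. They are no independent check of purity. For the 11 trophectoderm (TE) markers tested, the summed level was 348 to 843 CPM in ICM and 3172 to 5207 CPM in EPI. In the EB TE sums it was 225 to 61171 CPM (median 47044). KRT8 and KRT18 were each higher in every EPI sum than in any ICM sum. Without KRT8 and KRT18 the level was 90.6 to 384 CPM in ICM and 49.8 to 134 CPM in EPI. In the EB TE sums it was then 225 to 10231 CPM (median 5902). The order of ICM and EPI thus depended on KRT8 and KRT18. The lowest TE sum lay below every ICM sum with KRT8 and KRT18, and within the range of ICM without them. The summed level of the 12 hypoblast markers tested was 590 to 3049 CPM in ICM and 63.6 to 338 CPM in EPI, against 4706 to 13483 CPM in the LB HYPO sums. Of these markers, HNF4A and GATA4 held no count in EPI and FOXA2 held none in ICM. For the 13 stress response genes tested, the summed level, in EPI mostly that of HSPH1 and HSPA5, was 2472 to 4034 CPM in ICM and 1845 to 3967 CPM in EB TE, and 12303 to 31655 CPM in LB EPI and 20232 to 37480 CPM in LB HYPO. The part of handling in any difference below was not tested.

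The comparison asked which genes separate the first pluripotent cells of the blastocyst from the later epiblast. Of 14721 genes tested, 428 differed between ICM and EPI at an adjusted p under 0.05 in edgeR's quasi-likelihood test with Benjamini-Hochberg adjustment, which is 2.91% of those tested. A gene past this threshold is said to be called. Of the called genes, 165 were higher in ICM (1.12%) and 263 were higher in EPI (1.79%). In 120 of the 165 and 220 of the 263, the 7 ICM sums and the 4 EPI sums did not overlap. Among all genes tested, the sums did not overlap in 291 that were higher in ICM (1.98%) and in 611 that were higher in EPI (4.15%). The tested set includes 959 genes with no count in either group, since genes were kept on all 220 cells. Among the 11366 genes above TPM 1 in at least 3 of the 49 cells, the called share was 3.77%. At an unadjusted p under 0.05 stood 3328 genes, and the median log2 fold change over all genes, as ICM minus EPI, was -0.11.

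The counts of called genes depended on single embryos and on the tool. Without the EPI sum of AP 239 genes were called, and without that of AQ 269. The number higher in ICM was 105 without the ICM sum of AG, against 165 with it. With the 2 sums of a single cell left out, AD and AI, 447 genes were called. DESeq2 on the same sums called 1392 genes, 427 of them shared with the 428, and limma on log2(TPM + 1) called 969. Within the cells of the first 4 of the 8 library numbers in the sample titles 123 genes were called, and within those of the last 4 there were 195. Of 73 called entries named here, 40 kept their call in the first set and 51 in the second, and none changed direction in either.

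**Figure D1:**
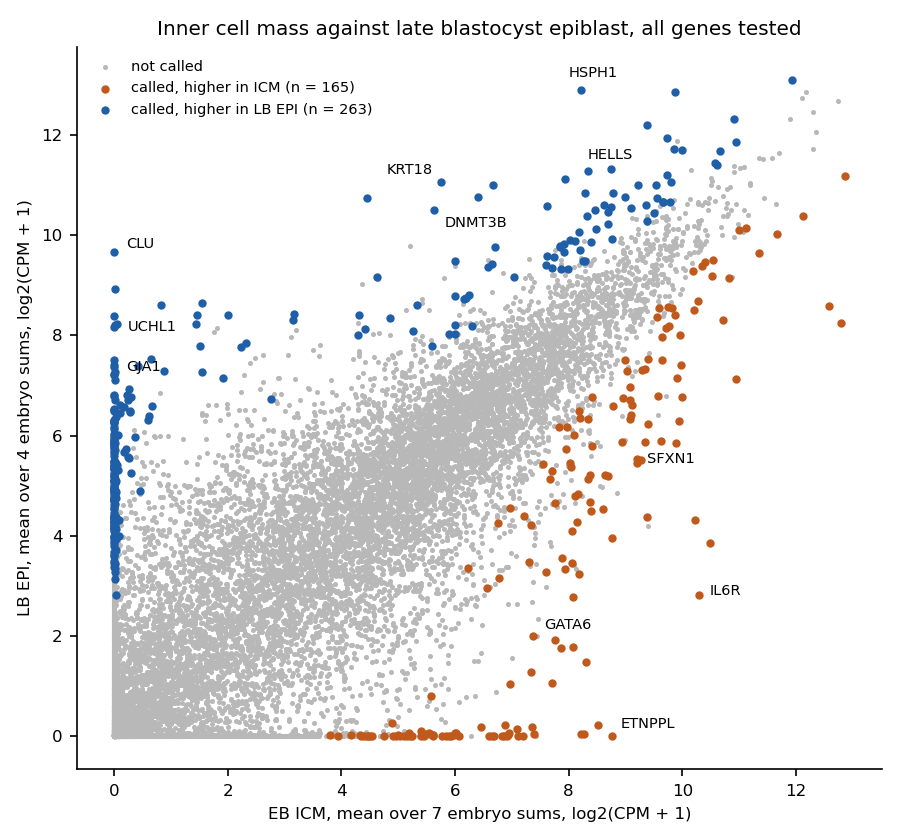
Mean level of each of the 14721 genes tested in the 7 EB ICM sums (horizontal axis) and the 4 LB EPI sums (vertical axis), both as log2(CPM + 1). Orange points are the 165 genes called higher in ICM and blue points the 263 called higher in EPI; many called genes lie along an axis, that is, with almost no count in the other group.

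**Figure D2:**
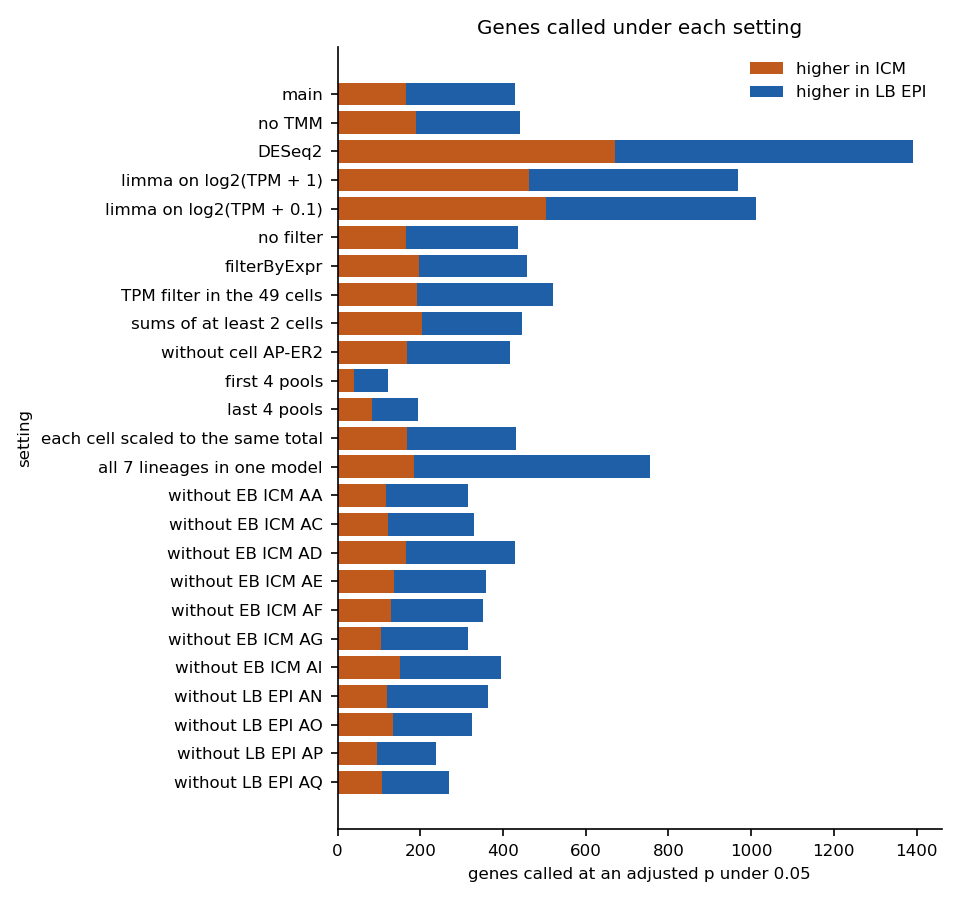
Number of genes called under the main setting, 13 other settings and with each of the 11 embryo sums left out, split by direction (orange, higher in ICM; blue, higher in EPI). The bar is longest for DESeq2 (1392 genes) and shortest for the cells of the first 4 library numbers (123 genes).

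Many called genes had no count in 1 group. No EPI count was found for 32 of the 165 genes called higher in ICM, and no ICM count for 103 of the 263 called higher in EPI. The other group could hold sums at 0 too: among those with a symbol, the sums did not overlap in 9 of the first and 60 of the second. The 5 genes given with the comparison include genes near 0 in either group and a graded difference. ETNPPL (ENSSSCG00000009144), a phospholyase that breaks down phosphoethanolamine, had 235, 414 and 691 CPM in ICM and no count in any EPI sum. The ICM cells held 26461 counts in all, so ETNPPL was at least 7993-fold higher in ICM, taking 3 counts over the EPI group as the limit (edgeR adjusted p = 2.76e-06). Every one of the 24 ICM cells was above TPM 1, but 0 of 25 EPI cells. By the limit of 3 counts this allows a share of up to 12%, which covers counting error only, since the cells come from 4 embryos.

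XPNPEP2 (ENSSSCG00000012651), a membrane-bound aminopeptidase, had 176, 267 and 534 CPM in ICM and 0, 0, 0.062 and 0.0559 CPM in EPI. These were 15583 counts against 2, a ratio of 7060.4-fold (95% counting interval 1954 to 58305), and the groups did not overlap (edgeR adjusted p = 1.12e-06). Like ETNPPL, it was above TPM 1 in 24 of 24 ICM cells and in 0 of 25 EPI cells.

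CLU (ENSSSCG00000009668), the secreted chaperone clusterin, was the reverse. None of the 7 ICM sums held a CLU count, and the EPI sums had 629, 1349, 790.1 and 455 CPM. With 38143 counts in EPI this was at least 14031-fold higher in EPI (edgeR adjusted p = 8.43e-06). UCHL1 (ENSSSCG00000022945), a deubiquitinating enzyme best known from neurons, had 365, 278, 257 and 280.2 CPM in EPI and 2 counts in 1 of the 7 ICM sums. The count ratio was 7518-fold (95% counting interval 2081 to 62084) in favour of EPI (edgeR adjusted p = 2.76e-06). Both genes were above TPM 1 in 25 of 25 EPI cells. None of the 24 ICM cells was, which by the limit of 3 counts allows up to 12.5%.

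HELLS (ENSSSCG00000010486), a chromatin remodeller that DNA methylation of silent chromatin depends on, differed in degree. Its ICM sums had 183, 330.2 and 419.9 CPM and its EPI sums 2849, 1888, 2196 and 2987 CPM, so that the highest ICM sum lay far below the lowest EPI sum. It was 7.67-fold higher in EPI, a log2 fold change of -2.94 (SE 0.23) (edgeR adjusted p = 5.36e-06), and all cells of both groups were above TPM 1. Each of these 5 genes was called under all 24 alternative settings.

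The genes with the largest fold among those with more than 3 counts in the lower group began in ICM with SMPDL3A. SMPDL3A, a secreted phosphodiesterase related to acid sphingomyelinase, had 236, 306 and 616 CPM in ICM and 0, 0.639, 0.062 and 0 CPM in EPI. The difference was 1886-fold (log2 fold change 10.88 (SE 1.10), edgeR adjusted p = 5.39e-05). SLC28A3, a concentrative nucleoside transporter, was 1149-fold higher in ICM, with 52.8, 114 and 338 CPM against 0.254, 0.0912, 0 and 0.224 CPM. ARG1, the urea cycle arginase, had 42, 131 and 187 CPM in ICM and at most 0.639 CPM in EPI, a difference of 606-fold. In each of these genes all 7 ICM sums exceeded all 4 EPI sums.

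IL6R, the ligand-binding chain of the interleukin 6 receptor, was high in each ICM embryo. Its ICM sums had 614, 1022 and 2840.4 CPM and its EPI sums 0, 15.3, 1.92 and 7.05 CPM, 203-fold higher in ICM (log2 fold change 7.66 (SE 1.06), edgeR adjusted p = 9.08e-04). It was above TPM 1 in 24 of 24 ICM cells and 5 of 25 EPI cells. TMEM86A, a lysoplasmalogenase, had 548, 1323 and 1663 CPM in ICM and 0, 33.6, 24.4 and 17.7 CPM in EPI, 63.1-fold higher in ICM. GJB5, a connexin of gap junctions, was at 154 to 348 CPM in ICM and 0 to 9.4 CPM in EPI. The others of the 10 were SDCBP2, a PDZ domain protein (169-fold), SHISA5, a membrane protein of the endoplasmic reticulum (107-fold), UBASH3B, a tyrosine phosphatase (95.2-fold) and PIK3C2B, a lipid kinase (129.7-fold), with adjusted p from 0.00504 to 0.0468 in edgeR. PIK3C2B was the least stable of them: it lost its call with any one embryo left out. The call of UBASH3B was lost without the EPI sum of AP, and those of the other 8 held with every embryo left out in turn.

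Beside ETNPPL, 3 ICM genes with no EPI count were among those with the smallest p. LIPH, a lipase that makes lysophosphatidic acid, had 62.5, 126 and 164 CPM in ICM, at least 1929-fold higher. ERBB4, a receptor of neuregulins, had 8.69, 113 and 159 CPM (at least 1729.9-fold). HNF4A, a nuclear receptor of endoderm and hypoblast, had 6.7, 94.8 and 324 CPM in ICM, at least 1808-fold higher than in EPI. The adjusted p of these 3 genes ran from 9.66e-05 to 0.00156 in edgeR, and all 3 were called under every alternative.

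**Figure D3:**
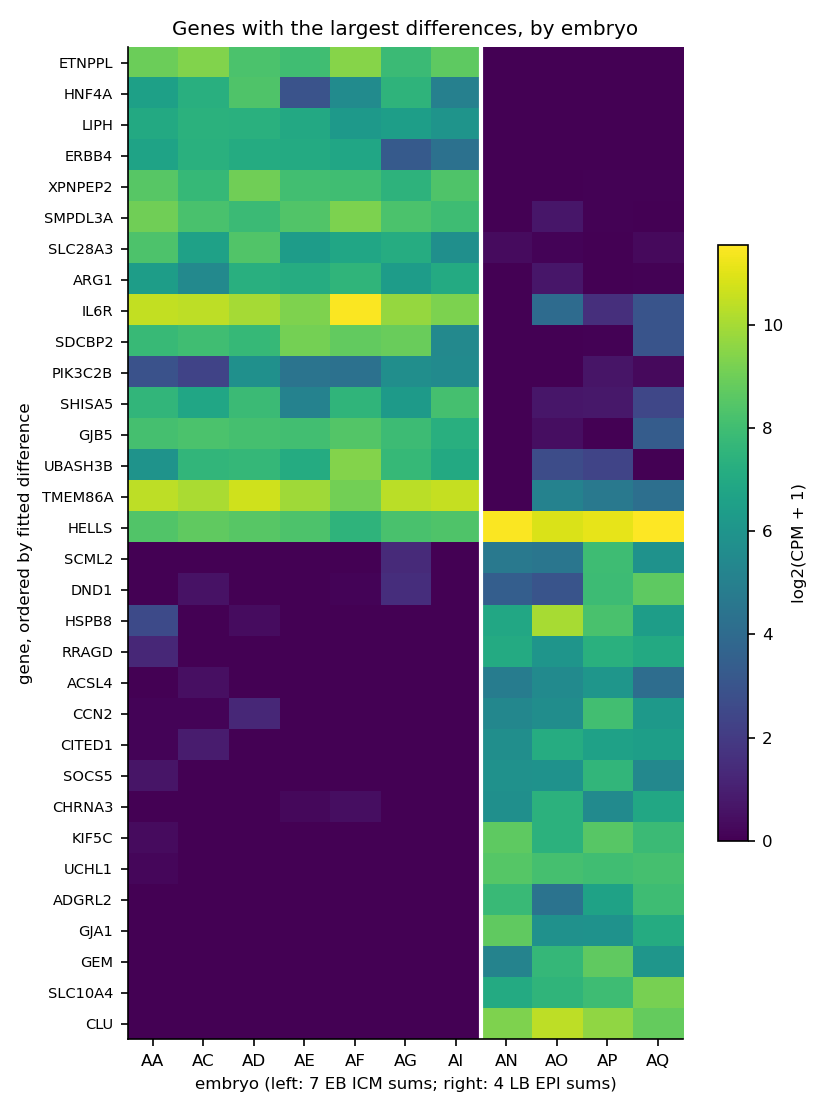
Levels, as log2(CPM + 1), of 32 genes named for the largest differences or given with the comparison (rows, ordered by fitted log2 fold change) in the 7 EB ICM sums and the 4 LB EPI sums (columns, split by the white line). Except for HELLS, each gene is near 0 in most or all sums of one group; TMEM86A and IL6R in 3 EPI sums are the clearest exceptions.

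On the EPI side, the largest fold with more than 3 ICM counts belonged to KIF5C, a neuronal kinesin heavy chain. It had 408, 169.8, 377 and 236 CPM in EPI and 0.281 CPM in a single ICM sum, 3982-fold higher in EPI (log2 fold change -11.96 (SE 1.04), edgeR adjusted p = 1.21e-05). CHRNA3, a nicotinic acetylcholine receptor subunit, was 952-fold higher, with 53.2, 171, 44.7 and 119 CPM in EPI. Neither gene had an ICM cell above TPM 1, while 22 and 20 of the 25 EPI cells were above it.

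SOCS5 and CITED1 are regulators of signalling and transcription. SOCS5, of the family of cytokine signalling suppressors, had 55.7, 57.7, 194 and 40.6 CPM in EPI and was 746-fold higher. CITED1, a co-activator that binds CBP and p300, had 51.4, 142, 95.2 and 88.1 CPM and was 569.7-fold higher, above TPM 1 in all 25 EPI cells. RRAGD, a small GTPase of the nutrient branch of mTORC1, had 134, 64.1, 158 and 129 CPM and was 478-fold higher. HSPB8, a small heat shock protein, had 119, 1063, 297 and 86.2 CPM, by far the most in embryo AO, and was 441-fold higher. SCML2, a Polycomb group protein, was at 21.9 to 249 CPM (357-fold), and its call was lost without the EPI sum of AP. In edgeR the adjusted p of these 5 genes ran from 0.00277 to 0.0156.

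DND1, an RNA-binding protein of germ cells, was uneven among the EPI embryos. Its Ensembl entry had 9.92, 7.03, 242 and 408 CPM in EPI and was 439.8-fold higher than in ICM. The entry that the authors added under the same symbol had 45.3, 26.3, 536 and 998 CPM, and the level of DND1 is uncertain where 2 entries carry the symbol. In both entries AP and AQ were well above AN and AO.

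CCN2, a matricellular protein and a well-known target of YAP and TAZ, had 39.4, 50.1, 268 and 76 CPM in EPI and was 511-fold higher there (edgeR adjusted p = 0.00449). Its relatives CCN1 and CCN3, and CNN1 and WWTR1 below, were picked after their values were seen, so their directions are not independent evidence. Activity of YAP and TAZ was not tested. CCN1 had 18.6, 31, 103 and 73.1 CPM against 1 ICM count, and CCN3 had 67.9, 18.3, 189 and 34.7 CPM against none. CNN1, the actin-binding calponin, had 44, 27.6, 73.2 and 25.6 CPM against 1 ICM count. All 3 were called higher in EPI (edgeR adjusted p from 7.68e-04 to 0.0049). WWTR1, which encodes TAZ itself, went the other way, with 122, 285 and 373 CPM in ICM and 39.4, 11, 8.8 and 4.87 CPM in EPI (16.7-fold higher in ICM, edgeR adjusted p = 0.00317).

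The EPI genes without an ICM count and with the smallest p were, beside CLU, a transporter, an adhesion receptor, a connexin and a GTPase. SLC10A4, a vesicular protein of the bile acid transporter family, had 131, 189, 251 and 573 CPM (at least 6207-fold higher). GEM, a small GTPase that restrains calcium channels, had 35.1, 203, 416 and 66.4 CPM (at least 3777-fold). GJA1, the gap junction protein connexin 43, had 427, 56.2, 57.6 and 135 CPM (at least 2074-fold), and ADGRL2, the adhesion receptor latrophilin 2, had 227, 20.1, 99.1 and 249 CPM (at least 2633-fold). Every EPI sum held each of the 4, and each was called under every alternative (edgeR adjusted p from 1.47e-04 to 0.00139). GJA1 and GJB5, both connexins, were thus called in opposite directions.

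The counts of called genes in the lists below stand against 2.91% of all genes tested, or 3.77% of those expressed in these cells. Among the factors of naive pluripotency, 1 of 8 tested was called. KLF4, a zinc finger factor that sustains the naive state in mouse, had 162, 432 and 1938 CPM in ICM and 55.5, 21.5, 65.6 and 36.3 CPM in EPI. It was 13.7-fold higher in ICM (log2 fold change 3.78 (SE 0.67), edgeR adjusted p = 0.00539), without overlap. It was above TPM 1 in 23 of 24 ICM cells and 7 of 25 EPI cells. The call did not hold within either set of 4 library numbers or in one model of all 7 lineages, with adjusted p up to 0.17. TBX3, a T-box factor of the same state, also did not overlap, at 18.6, 138 and 273 CPM in ICM against 0, 14.6, 0 and 6.49 CPM in EPI, but edgeR gave adjusted p = 0.105. ESRRB, an orphan nuclear receptor, was at 0 to 56.3 CPM in ICM and 0 to 8.74 CPM in EPI (edgeR adjusted p = 0.488). PRDM14, a repressor known from naive and germ cells, was at 0 to 44.8 CPM in ICM and 10.3 to 105 CPM in EPI and was not called (edgeR adjusted p = 0.386). TFAP2C, which marks naive human cells, was found in both groups, at 308 to 1965 and 242 to 814 CPM. KLF17, a zinc finger factor of the naive human state, had 0, 58.1 and 146 CPM in ICM and 43.8, 97.6, 52.3 and 39.8 CPM in EPI and was not called (edgeR adjusted p = 1). Its fitted direction, slightly towards EPI, turned without the ICM sum of AD or AI, both at 0 for it, or the EPI sum of AO. The median log2 fold change of the 8 genes was 0.41, against -0.11 over all genes, with 4 on each side of 0.

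Of 4 core pluripotency genes tested, 1 was called. MYC, the growth-promoting transcription factor, had 126, 81, 41 and 65.1 CPM in EPI and was found in a single ICM sum, embryo AF, at 3.65 CPM (138-fold higher in EPI, edgeR adjusted p = 0.0458). This call was lost with any one embryo left out other than AF, and it stood close to the threshold. LIN28A, an RNA-binding protein that blocks let-7, was at 0 to 15.5 CPM in ICM and 0 to 20.7 CPM in EPI (edgeR adjusted p = 0.827).

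Of 14 genes of the later epiblast, 3 were called, DNMT3B and NODAL higher in EPI and OTX2 higher in ICM. DNMT3B, a de novo DNA methyltransferase, had 9.77, 30.1 and 109.9 CPM in ICM and 1811, 538, 929 and 2526 CPM in EPI, 29.9-fold higher in EPI (log2 fold change -4.90 (SE 0.60), edgeR adjusted p = 3.06e-04). All 25 EPI cells were above TPM 1 for it, and 12 of 24 ICM cells. NODAL, the ligand that patterns the epiblast, had 28.5, 20.3, 15.2 and 16.8 CPM in EPI and no ICM count, at least 324-fold higher (edgeR adjusted p = 0.0223). The NODAL counts come from an entry that the authors added, in which every count is even, so they may not be on the scale of the Ensembl entries. NODAL was above TPM 1 in 11 of 25 EPI cells, and its call was lost without the EPI sum of AO, AP or AQ. OTX2, a homeobox factor listed here for its role in the primed epiblast, went against the list: it had 603, 891 and 1739.9 CPM in ICM and 147, 55.5, 232 and 244 CPM in EPI, 5.96-fold higher in ICM without overlap (edgeR adjusted p = 0.00362). Its call did not hold within the first 4 library numbers or in one model of all lineages. FGF19, a secreted growth factor, had 0, 0 and 18.6 CPM in ICM against 45.3, 114, 185 and 350.3 CPM in EPI, without overlap but with adjusted p = 0.11 in edgeR. SALL2, a zinc finger factor, was at 0 to 55.9 and 14.6 to 79.6 CPM and was not called (edgeR adjusted p = 0.662). The median log2 fold change of the list was -2.22, and 11 of its 14 members were on the EPI side.

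Of 15 entries of the DNA methylation machinery 2 were called, HELLS and DNMT3B, both higher in EPI. DNMT3A, the other de novo methyltransferase, had an Ensembl entry with 5.62, 85.9 and 207 CPM in ICM and 158, 478, 273 and 567 CPM in EPI, and an added entry with 11.6, 173 and 395 CPM and 313, 958, 529 and 1142 CPM. Both entries overlapped between the groups and were not called (edgeR adjusted p of 0.128 and 0.113). TDG, the glycosylase that excises oxidised methylcytosine, did not overlap, at 0, 74.8 and 141 CPM in ICM and 319, 425, 473 and 528 CPM in EPI, and edgeR gave adjusted p = 0.136. That p was under 0.05 without the ICM sum of AD, the only ICM sum without a TDG count. UHRF1, which guides maintenance methylation, was near 0 in both groups, with 1 ICM count and 225 EPI counts (edgeR adjusted p = 0.0788). TET1, which oxidises methylcytosine, was at 47.3 to 461 and 81.9 to 223 CPM (edgeR adjusted p = 0.46). The median of the list was -1.10.

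None of the 10 genes of Polycomb repressive complex 2 was called by edgeR. In the same test 3 of them were at an unadjusted p under 0.05, against 3328 of all 14721 genes tested. The smallest p belonged to AEBP2, an accessory subunit, with 233, 427 and 1454 CPM in ICM and 120.3, 127, 285 and 124 CPM in EPI (adjusted p = 0.0961, edgeR), and to EED, which binds the trimethylated histone tail, with 37.6, 222 and 657 CPM and 131, 62.6, 131 and 64.6 CPM (adjusted p = 0.146). The groups overlapped in both. EZH2, the methyltransferase, was at 112 to 265 and 5.09 to 158 CPM, and SUZ12, its core partner, at 42.5 to 126 and 0 to 69.7 CPM, and neither was called (edgeR adjusted p of 0.521 and 0.584). AEBP2 was called by DESeq2, and EED with sums of at least 2 cells and in one model of all lineages. The median log2 fold change was 0.61.

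Of 17 genes of interleukin 6 and JAK-STAT signalling, IL6R alone was called. IL6ST, the shared signal-transducing chain gp130, had 40.9, 375 and 484 CPM in ICM and 0.254, 112, 57.1 and 20.6 CPM in EPI (edgeR adjusted p = 0.135). STAT3, the transcription factor downstream, had 105, 578 and 944 CPM and 5.6, 355, 129.9 and 88.6 CPM (edgeR adjusted p = 0.165). For both, the lowest ICM sum was that of AD and lay within the range of EPI. STAT2, a factor of interferon signalling that was not on the list and was noticed after its values were seen, was called higher in ICM, at 162, 359 and 547 CPM against 55.5, 23.3, 17.4 and 2.41 CPM (13.5-fold, edgeR adjusted p = 0.0101). The list's median was 0.04, with 9 members on the ICM side and 7 on the EPI side.

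In the TGF-beta, NODAL and BMP list, 1 of 26 genes was called, the ligand NODAL described above. This share, 3.85%, is near that of all genes. FOXH1, the DNA-binding partner of SMAD2 and SMAD3 in NODAL signalling, did not overlap, with 3.53, 28.8 and 48.3 CPM in ICM and 58.8, 267, 196 and 114 CPM in EPI, but was not called (edgeR adjusted p = 0.0741). It was called without the ICM sum of AD, which was its lowest. ID2, a target of BMP signalling, was at 0 to 18.1 CPM in ICM and 9.06 to 115 CPM in EPI (edgeR adjusted p = 0.179). The median of the list was -0.35, or -0.12 with genes lacking a count in 1 group set to their bound.

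Of 17 genes of FGF and ERK signalling, 1 was called. ETV4, a transcription factor induced by FGF signalling, had no ICM count and 62.6, 63.1, 57.5 and 60.3 CPM in EPI, all close to each other (at least 1083-fold higher, edgeR adjusted p = 0.00448). It was above TPM 1 in 20 of 25 EPI cells. Its relative ETV1 was expressed in both groups, at 8.4, 82 and 124 CPM in ICM and 114, 220.5, 242 and 325 CPM in EPI (edgeR adjusted p = 0.152). DUSP4, a phosphatase that restrains ERK, had no ICM count and 28.7, 0, 10.3 and 17.2 CPM in EPI and was not called (edgeR adjusted p = 0.0723). The median of the list was -0.97, with 11 members on the EPI side and 5 on the ICM side.

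Among 22 genes of glycolysis, glycogen and hypoxia, 3 were called, all higher in EPI. PKM, pyruvate kinase, had 236, 417 and 562 CPM in ICM and 1518, 1493, 1723 and 1492 CPM in EPI. It was 3.97-fold higher in EPI (log2 fold change -1.99 (SE 0.24), edgeR adjusted p = 2.40e-04) and was called under every alternative. GAPDH, the glycolytic dehydrogenase, had 10.4, 64.5 and 141 CPM in ICM and 481, 378, 373 and 538 CPM in EPI, 6.98-fold higher without overlap (edgeR adjusted p = 0.0187), but its call was lost in limma and without the EPI sum of AQ. ENO2, the neuronal enolase, had 1 ICM count and 35.9, 0, 17.4 and 4.25 CPM in EPI, so that the groups overlapped at 0. Its call (edgeR adjusted p = 0.0436) was lost in 15 of 23 alternatives. ENO1, the widespread enolase, was at 166 to 482 and 334 to 1126 CPM (edgeR adjusted p = 0.0946). LDHA, the lactate dehydrogenase subunit, was at 165 to 1180.3 and 333 to 1296 CPM (edgeR adjusted p = 0.652), and its direction turned in limma on log2(TPM + 0.1). HIF1A, the hypoxia-inducible factor, was at 0 to 345 and 69.7 to 477 CPM (edgeR adjusted p = 0.635). The median of the list was -0.997.

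The opposite direction was called among 22 genes of the tricarboxylic acid cycle, where 3 were called, all higher in ICM. DLD, the dihydrolipoamide dehydrogenase shared by the large dehydrogenase complexes, had 1909.5, 2334 and 3736 CPM in ICM and 772, 718, 749.7 and 953 CPM in EPI (3.26-fold higher, log2 fold change 1.70 (SE 0.22), edgeR adjusted p = 4.79e-04). IDH1, the isocitrate dehydrogenase of the cytosol, had 1273, 1787 and 2364 CPM and 118, 623, 779 and 736 CPM (3.21-fold higher, edgeR adjusted p = 0.0313), but lost its call with any one of 8 embryos left out. The median of the list was 0.09, so that the 22 genes as a whole lay near the middle of all genes.

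Of 12 genes of cytochrome c oxidase, the last complex of the respiratory chain, and its assembly, 2 were called, both subunits higher in ICM. COX4I1 had 973, 1086 and 1440 CPM in ICM and 555, 628, 564 and 755 CPM in EPI (1.87-fold, log2 fold change 0.90 (SE 0.21), edgeR adjusted p = 0.0275). COX5A had 551, 832 and 1021 CPM and 262, 493, 345 and 383 CPM (2.06-fold, edgeR adjusted p = 0.0491). The groups overlapped in neither, but COX4I1 was called in 16 and COX5A in 11 of 24 alternatives. Of the 12 genes, 10 were on the ICM side, with a median of 0.63.

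Other mitochondrial and amino acid genes were noticed after their values were seen. SFXN1, the mitochondrial serine transporter, had 411, 557 and 869 CPM in ICM and 70.7, 50.6, 30 and 30.5 CPM in EPI (12.9-fold, edgeR adjusted p = 1.04e-04). HIGD1A, a small protein of the respiratory chain that is known from hypoxia, had 1859, 3373 and 4179 CPM and 954, 1018, 1128 and 1061 CPM (3.11-fold, edgeR adjusted p = 6.93e-04). BAD, a BCL2 family protein that promotes apoptosis, had 279, 398 and 609 CPM and 29, 64.3, 21.9 and 26.4 CPM (11.7-fold, edgeR adjusted p = 3.19e-04). All 3 were higher in every ICM sum than in any EPI sum, but they were picked with these values known. Their shared direction is therefore no support for the lists above. SFXN1 had a median of 538 CPM in LB HYPO, within the range of the ICM sums.

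In fatty acid metabolism, 1 of 25 genes was called, which is 4% and near the share of all genes. ACSL4, which activates long polyunsaturated fatty acids, had 4 counts in 1 ICM sum and 28, 44.6, 65.2 and 16.6 CPM in EPI (log2 fold change -8.97 (SE 1.69), higher in EPI, edgeR adjusted p = 0.00867). It was above TPM 1 in 9 of 25 EPI cells and no ICM cell. ACSL6, another enzyme of the same family that was not on the list, was the reverse, with 43.5, 268 and 506.5 CPM in ICM and 0, 0.0912, 0 and 0.0559 CPM in EPI. These were 19152 counts against 2, a ratio of 8677-fold (95% counting interval 2402 to 71658) in favour of ICM (edgeR adjusted p = 1.25e-05), and all 24 ICM cells were above TPM 1. ACLY, which makes acetyl-CoA from citrate, had 0, 75 and 129 CPM and 83.7, 136, 67.9 and 40.7 CPM and was not called (edgeR adjusted p = 1), with a direction that turned without the ICM sum of AD or the EPI sum of AO. CPT1A, which admits fatty acids to mitochondria, was at 45.4 to 172 and 20.9 to 131 CPM and was not called (edgeR adjusted p = 0.586). The median of the list was 0.26.

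Of 24 genes of cell junctions and adhesion, 3 were called: GJA1 higher in EPI, and GJB5 and FN1 higher in ICM. FN1, the matrix protein fibronectin, had 170.5, 614 and 2158 CPM in ICM and 71.7, 223, 102 and 41.7 CPM in EPI, with the ICM sum of AF inside the EPI range (6.97-fold, edgeR adjusted p = 0.0414). FN1 is also a hypoblast marker, and its call was lost without any one of 7 embryos. Among 12 surface CD molecules, 2 were called, both higher in ICM. CD9, a tetraspanin, had 122, 195 and 219 CPM and 37.9, 51.7, 26.5 and 52.1 CPM without overlap (4.42-fold, edgeR adjusted p = 0.0169), and its call was lost without the ICM sum of AG or the EPI sum of AP. CD200R1, an inhibitory receptor, had 0, 46.5 and 142 CPM in ICM and no EPI count (at least 1032-fold, edgeR adjusted p = 0.0386), but the ICM sums of AD and AI, of 1 cell each, held none. CD244, a receptor of natural killer cells, was found in 3 of 7 ICM sums, at up to 185 CPM, and in no EPI sum, and was not called (edgeR adjusted p = 0.114). CD83, known from dendritic cells, had no ICM count and 35.6, 0, 7.37 and 15.1 CPM in EPI (edgeR adjusted p = 0.0735). The medians of the 2 lists were -0.02 and 1.72.

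Replication and cell cycle genes gave 1 call of 13. TOP2A, the topoisomerase of dividing cells, had 352, 445 and 1007 CPM in ICM and 2399, 1580, 1319.7 and 700.4 CPM in EPI (2.74-fold higher in EPI, edgeR adjusted p = 0.0288). The EPI sum of AQ lay below the ICM sum of AE, and the call was lost in 10 of 24 alternatives. None of 9 maternal oocyte transcripts was called by edgeR or DESeq2. In edgeR 1 of them was at an unadjusted p under 0.05, against 3328 of all 14721 genes tested. ZAR1, a maternal factor of the first divisions, had the smallest p, with 23 ICM counts and 0, 19.3, 35.1 and 30.8 CPM in EPI (edgeR adjusted p = 0.125). It was called by limma under both pseudocounts. GDF9, a growth factor of the oocyte, had 153 ICM counts and 1 EPI count (edgeR adjusted p = 0.226).

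**Figure D4:**
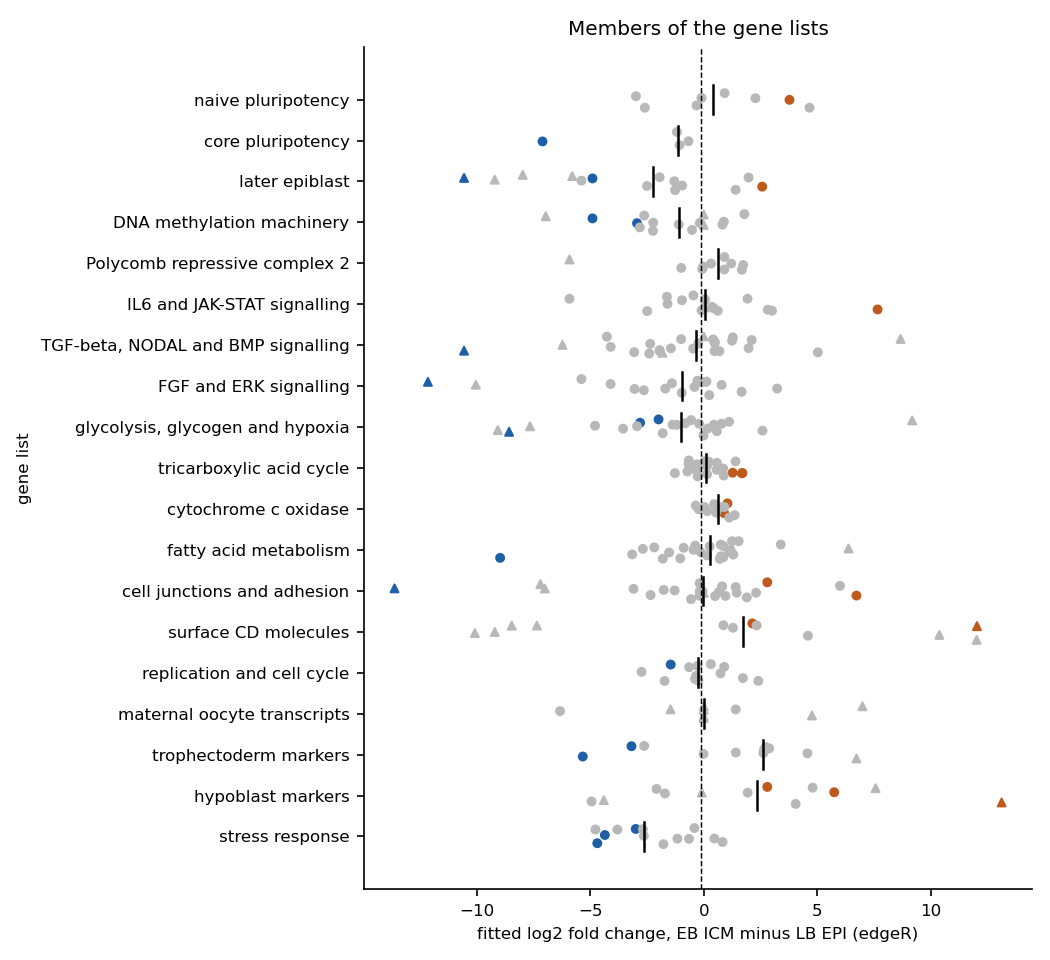
Fitted log2 fold change, ICM minus EPI, of each tested member of the 19 gene lists. Orange and blue mark members called higher in ICM and in EPI and grey those not called; triangles have at most 3 counts in 1 group, so their position depends on the fit. Black bars are list medians and the dashed line is the median of all genes (-0.11). The stress response and later epiblast lists lie furthest towards EPI, with medians of -2.64 and -2.22.

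The hypoblast markers gave 3 calls of 12, all higher in ICM: HNF4A, FN1 and GATA6. GATA6, the factor that specifies hypoblast, had 83.6, 153 and 309 CPM in ICM and 0, 3.74, 5.76 and 2.57 CPM in EPI (53.8-fold higher, log2 fold change 5.75 (SE 1.01), edgeR adjusted p = 0.00526). It was above TPM 1 in 20 of 24 ICM cells and 3 of 25 EPI cells, and it was called in all alternatives but the first 4 library numbers. PDGFRA, a receptor of the early hypoblast, had 0, 184 and 278 CPM in ICM and 0, 35.4, 0.062 and 2.63 CPM in EPI and was not called (edgeR adjusted p = 0.179), and GATA4, which follows GATA6, had 102 ICM counts in 3 sums and none in EPI (edgeR adjusted p = 0.171). Other markers were on the EPI side without being called. COL4A2, a collagen chain of basement membranes, had 22 ICM counts and 486 EPI counts without overlap (edgeR adjusted p = 0.123). FOXA2, an endoderm factor, had 0 ICM and 17 EPI counts, NID2, a basement membrane protein, 89 and 400, and RBP4, the retinol carrier, 60 and 301. In all, 7 of the 12 were on the ICM side and 4 on the EPI side, with a median of 2.37. The ICM is labelled before the split of epiblast and hypoblast, and how many of its 24 cells were bound for either was not tested.

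Of 11 trophectoderm markers, 2 were called, and both were higher in EPI. With a value of 2.63, the median log2 fold change of the list had the opposite sign, with 7 members on the ICM side and 4 on the EPI side. KRT18 and KRT8 are the keratin pair of simple epithelia. KRT18 had 18, 34.7 and 105 CPM in ICM and 2484, 1411, 2218 and 2398 CPM in EPI (40.2-fold, log2 fold change -5.33 (SE 0.49), edgeR adjusted p = 1.97e-05). KRT8 had 103, 208 and 417 CPM and 2323, 1647, 2939 and 1972 CPM (9.08-fold, edgeR adjusted p = 1.04e-04). GATA3, a defining trophectoderm factor, was at 0 to 4.71 CPM in ICM and 0 to 0.547 CPM in EPI against a median of 187 CPM in EB TE, and ELF5 had no EPI count. TFAP2A, another trophectoderm factor, was at 2.06 to 181 CPM in ICM and 0 to 5.29 CPM in EPI and was not called (edgeR adjusted p = 0.112). GATA2, a relative of GATA3, was found in 2 ICM sums and 1 EPI sum, at up to 24.1 and 2.79 CPM, and was not called (edgeR adjusted p = 0.712), with the opposite direction within the first 4 library numbers. ANXA2, a membrane-binding protein of epithelia noticed after its values were seen, was higher in EPI with the keratins, at 237, 347 and 799.6 CPM against 2801, 2189, 2682 and 2626 CPM (6.01-fold, edgeR adjusted p = 1.04e-04).

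Stress response genes gave 3 calls of 13, all higher in EPI, and a list median of -2.64. On the EPI side were 11 members, and JUNB (log2 fold change 0.83) and DUSP1 (0.47), both immediate early genes, were on the ICM side without being called. HSPH1, a co-chaperone of HSP70, had 138, 208 and 546 CPM in ICM and 5951, 11816, 8456 and 4534 CPM in EPI (25.8-fold, log2 fold change -4.69 (SE 0.39), edgeR adjusted p = 8.43e-06). DNAJB1, the heat-inducible HSP40, had 69.1, 87.4 and 162 CPM and 1383, 3949.8, 2389.6 and 510.2 CPM (20.5-fold, edgeR adjusted p = 4.22e-05). HSPA5, the chaperone BiP of the endoplasmic reticulum, had 127, 826 and 2113 CPM and 5250.5, 9361, 11366 and 3853 CPM (7.97-fold, edgeR adjusted p = 0.00327). In all 3 the EPI sum of AQ was the lowest, and it lay above every ICM sum. HSPA8 and HSP90AA1, further members, were at 70.8 to 445 and 472 to 2652 CPM in ICM and at 149 to 1534 and 1689 to 3038 CPM in EPI, and were not called (edgeR adjusted p of 0.0938 and 0.119).

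The following chaperones outside the list were picked after their values were seen because they were called higher in EPI, so their shared direction comes from that choice. DNAJA1, a co-chaperone of HSC70, had 517.3, 651 and 820.5 CPM in ICM and 3981, 6794, 5638 and 2418 CPM in EPI (7.08-fold, edgeR adjusted p = 1.21e-05). STIP1, which joins HSP70 to HSP90, was 4.63-fold higher in EPI, HSP90B1 of the endoplasmic reticulum 3.42-fold, FKBP4, an HSP90 partner, 3.78-fold, TCP1, a subunit of the cytosolic chaperonin, 3.29-fold, and HSP90AB1, the constitutive HSP90, 2.65-fold, with adjusted p from 2.53e-04 to 0.00486 in edgeR. SOD1, the cytosolic superoxide dismutase, had 125, 193 and 292 CPM and 2121, 1069, 1194 and 1778 CPM (7.85-fold, edgeR adjusted p = 2.38e-05). Levels outside the comparison differed from gene to gene. HSPH1 had a median of 5425 CPM in LB HYPO, 937 in the EPI of spherical embryos (Sph) and 449.5 in morulae (M). DNAJB1 had 3948, 182 and 253 CPM in the same order. The medians in LB HYPO and Sph EPI were 16466 and 2903 CPM for HSPA5, 4724 and 1947 for DNAJA1, 3341 and 1096 for HSP90B1, and 3849 and 2118 for STIP1. For FKBP4 they were 1148 and 756 CPM, for HSP90AB1 5461 and 4533, and for TCP1 2654 and 3127. Sph HYPO, isolated by hand like Sph EPI, had medians of 1660, 710 and 5213 CPM for HSPH1, DNAJB1 and HSPA5. There DNAJA1 had 1581 CPM, HSP90B1 1222, STIP1 1401, FKBP4 396 and TCP1 936. These medians were not tested against each other. SOD1 was at 168 CPM in LB HYPO and 1657 in Sph EPI.

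The levels of the named genes in the other lineages of the series place them, as medians over embryo sums with TMM scaling over all sums and with no test. Of the ICM genes, ETNPPL, SLC28A3, ACSL6 and TMEM86A were high in morulae, at 1104, 1737, 578 and 1161 CPM. In EB TE they had 85.1, 2644, 742 and 766 CPM, and the medians of SLC28A3 and ACSL6 were higher there than in ICM. In Sph EPI they were at 0, 0.0208, 0.479 and 5.33 CPM. IL6R and SDCBP2 differed from these, with 28.9 and 0.0249 CPM in morulae, below every ICM sum. In the LB HYPO sums IL6R was at 169 to 391 CPM, also below every ICM sum. HNF4A was at 0 in the median morula and 47.5 CPM in LB HYPO, and GATA6 at 486 and 53.9 CPM. GATA6 was also found in every EB TE sum, at 71.2 to 311 CPM, against 83.3 to 305 CPM in ICM with the same scaling.

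Of the EPI genes, UCHL1, KIF5C, CHRNA3, RRAGD and ETV4 were at a median of 0 in morulae and TE and low in LB HYPO, with medians there of 10.7, 0, 0, 0 and 0.635 CPM. In Sph EPI they had medians of 634, 532, 117, 107 and 52.5 CPM. CLU and HSPB8 were found in both LB lineages, with 214 and 426 CPM in LB HYPO, and at 129 and 10.4 CPM in Sph EPI. In Sph HYPO the median of CLU was 1208 CPM, so CLU was not confined to the LB stage. GEM and CITED1 were low in Sph EPI, at 1.65 and 1.46 CPM. HELLS and DNMT3B stayed high there, at 1422 and 1262 CPM, against 105 and 156 CPM in LB HYPO. The median of KRT18 was 34.6 CPM in ICM, against 1133 in morulae, 10173 in TE, 244 in LB HYPO and 1779 in Sph EPI. KRT8 differed from it, with 2059 CPM in LB HYPO, within the range of the LB EPI sums. ANXA2 had 4047 CPM in LB HYPO, above every LB EPI sum. OTX2 had 498 CPM in Sph EPI, above every LB EPI sum.

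**Figure D5:**
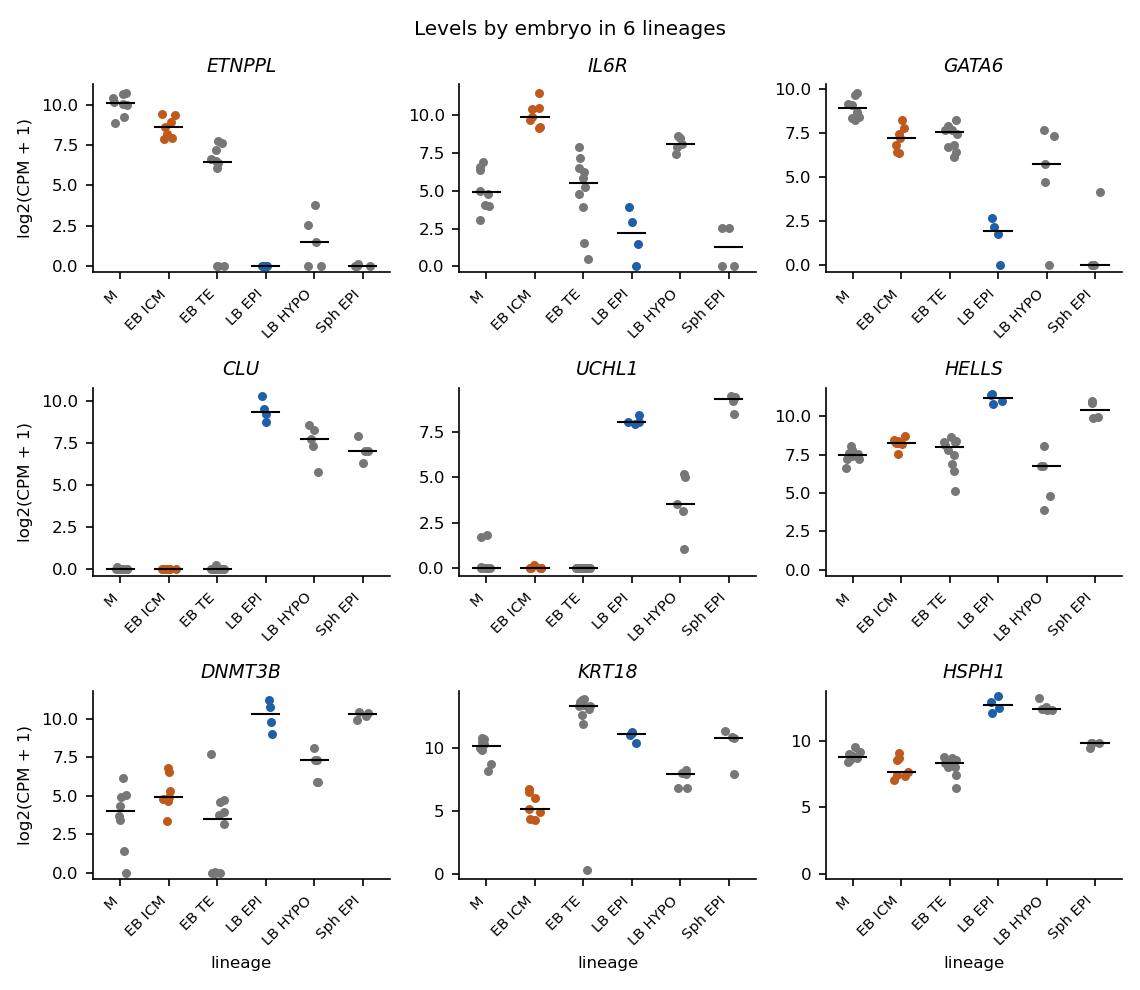
Level of 9 genes, as log2(CPM + 1) with scaling over all sums, in each embryo sum of M (morula), EB ICM (orange), EB TE (trophectoderm), LB EPI (blue), LB HYPO (hypoblast) and Sph EPI. Each point is 1 embryo sum and bars are medians. ETNPPL and GATA6 are present from the morula to the ICM, ETNPPL also in most TE sums and GATA6 in all of them. UCHL1 and HELLS are high in both EPI stages. KRT18 is lowest in ICM and 1 TE sum and also low in LB HYPO, and HSPH1 is highest in both LB lineages.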

How the data were processed

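Paired-end Smart-seq2 reads were trimmed with scythe and sickle and aligned to the pig genome with HISAT2 2.1.0 by the authors. They deposited raw counts per gene and cell, made with HTSeq on Ensembl genes from uniquely mapped reads, with no normalization. The authors also deposited TPM, computed from these counts. They removed cells with few gene reads, a high mitochondrial share or an outlying position. The 16 entries that the authors added hold only even counts. A list of Ensembl gene names gave symbols to 11437 entries, which hold 75.3% of counts. No coordinates are given, because the annotation at hand is of another assembly. No promoter or protein sequences were at hand, and the planned motif search was not run.

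Counts were summed per embryo and label in Python 3.11.15 with pandas 2.3.3. Genes with TPM over 1 in at least 3 of the 220 cells were kept. The 7 ICM sums were compared with the 4 EPI sums in edgeR 4.0.16 under R 4.3.3 (TMM, glmQLFit, glmQLFTest), and genes with a Benjamini-Hochberg adjusted p under 0.05 were called. The test was two-sided. The authors' own test, on single cells, was not followed, since cells of 1 embryo are not replicates. The standard error is the log2 fold change divided by the square root of F. A gene without counts in 1 group is given as a bound against 3 counts over that group, and one with 1 to 3 counts as a count ratio with an exact interval; both cover counting error only. P-values set each difference against the spread among these embryo sums, which hold 1 to 10 cells each. Whether embryos of a group shared a sow is not known. Alternatives were DESeq2 1.42.0, limma 3.58.1 on mean log2(TPM + 1) or log2(TPM + 0.1), no TMM, 3 other filters, sums of at least 2 cells, 1 cell of less certain embryo left out, cells scaled to equal totals, the first or last 4 of 8 library numbers in the sample titles, one model of all 7 lineages, and the removal of each embryo. Plots used matplotlib 3.10.9 and intervals scipy 1.17.1.

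Genes were named by a rule: the 5 given genes, the called members of each list (at most 4, or the 2 with the smallest p where none was called), the 10 genes with the largest fold in each direction that had a symbol, no overlap and over 3 counts in the lower group, and the 5 with the smallest p and no count there. Others were added after their values were seen, and 2 genes that the rule named are not reported here, though they remain in every fit and count of genes. The lists and the comparison were chosen with earlier results of these data known, and many list members come from the study of these cells, so list counts are not independent evidence.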

Additional observations from a re-analysis of the deposited data

Results flagged for a closer look

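In 19 of 127 groups of embryo sums tested among the named genes, the highest or lowest sum stood far from the others by Dixon's test. Chance flags about 1 in 20 groups, and sums of genes near 0 are flagged whenever a single embryo holds a few counts. Most were of this last kind. Among the genes called higher in EPI, 1 ICM embryo held the highest level for KIF5C (AA, 0.281 CPM), SOCS5 (AA, 0.561), RRAGD (AA, 1.40), HSPB8 (AA, 5.12), CITED1 (AC, 0.835), ACSL4 (AC, 0.371), CCN2 (AD, 1.47), DND1 (AG, 1.85), SCML2 (AG, 1.57) and MYC (AF, 3.65). Embryo AA, the ICM sum with the most cells and counts, was the one in 4 of these 10. Among the genes called higher in ICM, 1 EPI embryo held the highest level for SMPDL3A (AO, 0.639 CPM), ARG1 (AO, 0.639), GJB5 (AQ, 9.40) and SDCBP2 (AQ, 7.05).

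The other 5 concern genes that the group clearly expressed. ICM embryo AD, a single cell, was the lowest ICM sum for CD9 (122 CPM), and AI, also a single cell, for SDCBP2 (42). ICM embryo AF was the lowest for HELLS (183 CPM). EPI embryo AN, of 2 cells, was the lowest EPI sum for IDH1 (118 CPM), and EPI embryo AP was the highest for PKM (1723 CPM).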

How the results depend on the processing

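The count of called genes, 428 with 165 higher in ICM and 263 higher in EPI, moved by more than 1.5 times under 6 settings. DESeq2 called 1392 (670 and 722), limma 969 on log2(TPM + 1) and 1012 on log2(TPM + 0.1), and one model of all 7 lineages 755 (186 and 569). The first 4 library numbers gave 123 (39 and 84) and the last 4 gave 195 (83 and 112), with fewer cells in most sums. Embryo AE had no ICM cell in the first set, and AD and AI had none in the last, so these sums dropped out there. The share of calls higher in ICM was 38.6%, against 47.9% in limma on log2(TPM + 1), 49.8% in limma on log2(TPM + 0.1) and 24.6% with all lineages. With each embryo left out in turn, 239 to 428 genes were called, 95 to 166 of them higher in ICM and 144 to 262 higher in EPI. The lowest of each came without the EPI sum of AP, and without that of AQ there were 269 (108 and 161). Without the ICM sum of AG, 105 were higher in ICM. The other 7 settings gave 417 to 520. Without TMM the median log2 fold change, taken over all genes, shifted by 0.11, and all 73 called entries that are named kept their call and direction. Among the 112 named entries 4 changed direction, and none of the 4 was called. The log2 fold change of ACLY (-0.13) was 0.0996 with sums of at least 2 cells, 0.681 in the last 4 library numbers and -0.354 to 0.229 with each embryo left out, above 0 without AD or AO. The log2 fold change of KLF17 (-0.10) was 0.428 and 0.587 in the same settings and -0.571 to 0.268 with each embryo left out, above 0 without AD, AI or AO. The log2 fold change of LDHA (-0.55) was 0.103 in limma on log2(TPM + 0.1), and the log2 fold change of GATA2 (2.63) was -6.05 in the first 4 library numbers. The cause of the changes was not tested.

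No paired analysis was possible because the ICM and EPI sums share no embryo, and their replicate numbers only follow accession order. Depth limits the genes near 0: a gene without counts in 1 group may still be present there below the limit of 3 counts over the group. The 2 ICM sums of 1 cell and the EPI sum of 2 cells are the least certain, and the embryo of 1 EPI cell (AP-ER2) is read from an unusual identifier. Without that cell 417 genes were called.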
